A study of Mus musculus with 20 samples.

Results

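A group of 10 immediate early genes, which encode regulators of transcription and, for Zfp36, of mRNA decay, was described across control and E2-treated ovarian surface epithelial (OSE) cells. They were Fos, Fosb, Jun, Junb, Jund, Egr1, Atf3, Ier2, Zfp36 and Klf6. The members were taken by name from the deposited count table, which holds 14299 genes, and all 10 were found in it. OSE cells cover the ovary as a single epithelial layer. Primary mouse OSE cells were kept without hormone for 48 hours and then given either 100 nM of the estrogen estradiol (E2) or the ethanol vehicle alone (0.0002%) over 15 days. Cells were captured on 1 Fluidigm chip of 20 columns, of which columns 1 to 10 took the control suspension and columns 11 to 20 the E2 suspension. Each column gave 1 library of 3′ transcript ends, and libraries are numbered here by their column. The age of the mice, and the time between the last change of medium and collection, are not given in the sources used here.

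The 589 cells of 19 libraries were analysed, of which 10 were control (30 to 36 cells each) and 9 E2 (26 to 32 cells each). Column 13 was not analysed here. Within a column cells carry 1 of 40 row barcodes, and all 40 recur across columns by design. Total counts were 3867791 to 5078340 per control library and 2693258 to 4037847 per E2 library. In the deposited SC3 labels for a division into 2 groups, label 1 held 421 cells, 203 control and 218 E2-treated, called responsive here, and label 2 held 168 cells, 126 control and 42 E2-treated. The latter are the population that the study describes as unresponsive to E2 and names cluster 1, and they are called cluster 1 here. All columns of a condition shared 1 suspension, so an effect of E2 cannot be told apart from a difference between suspensions, and the p-values measure the spread between columns and not between cultures or animals. OSE markers were present in every library, with 11 of 12 listed genes in the table and summed levels of 5343 to 6750 CPM (counts scaled to a common library total) in control and 5338 to 6700 CPM in E2 libraries. Of 8 stromal fibroblast markers, 6 were in the table, with 2306 to 3094 CPM in control and 1895 to 4767 CPM in E2 libraries, and of these Thy1 was lower in E2-treated responsive cells by a log2 fold change of -2.78 (adjusted p = 2.38e-06, edgeR). Granulosa and endothelial lists each had 2 of 6 genes in the table, and theca, leukocyte and muscle or pericyte lists each had 3 of 6. Their summed levels were at most 709 CPM in any library, for the endothelial list, and no gene of these 5 lists was called. With so few genes per list, these levels do not show whether such cells were present. Among OSE markers Krt19 was higher with E2 in responsive cells, by 0.62 (adjusted p = 0.00973, edgeR).

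Immediate early genes are transcribed within minutes of a stimulus such as serum, a growth factor, stress or the dissociation of a tissue, without new protein synthesis, and most of their mRNAs are short-lived. Fos and Jun proteins carry a basic leucine zipper (bZIP) and pair to form AP-1, which binds DNA at TGANTCA sites. Fos family proteins need a partner from the Jun family, whereas Jun proteins can also pair with each other.

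The promoters of Fos, Fosb and Junb are shown because Fos and Fosb gave the E2 differences and the strongest pairing between cells, and because all 3 held the same short motif, TGACG, the core of the site bound by CREB and ATF proteins. The sequences run 5′ to 3′ on the strand of the gene and stop 10 bases before the RefSeq start of transcription, in build GRCm38.p6. Capitals mark TGACG and, in Fos, the TATA box TATAAA. Fos lay at chr12:85473740-85473879 on the plus strand, Fosb at chr7:19310056-19310195 and Junb at chr8:84978759-84978898, both on the minus strand.
Fos: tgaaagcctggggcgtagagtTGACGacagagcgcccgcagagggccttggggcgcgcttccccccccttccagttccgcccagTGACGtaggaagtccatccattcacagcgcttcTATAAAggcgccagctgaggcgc
Fosb: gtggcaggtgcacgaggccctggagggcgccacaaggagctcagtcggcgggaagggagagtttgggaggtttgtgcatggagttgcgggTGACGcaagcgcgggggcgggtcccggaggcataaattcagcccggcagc
Junb: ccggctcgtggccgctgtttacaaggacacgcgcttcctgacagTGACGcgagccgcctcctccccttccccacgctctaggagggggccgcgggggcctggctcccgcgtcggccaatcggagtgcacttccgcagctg

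Motifs were searched on both strands of the 250 bases before each RefSeq start, for 8 members and for 32851 promoters in all. TGACG was found in 4 of the 8 members (Fos, Fosb, Junb and Atf3) and in 17.8% of all promoters. In Fos it occurred at 2 places, 129 and 66 bases before the start. None of the 8 held the full palindrome TGACGTCA, which contains TGACG and was in 1.55% of promoters, or the AP-1 site TGANTCA, which was in 6.75%. The full estrogen response element, which is GGTCA, any 3 bases and the reverse complement of GGTCA, was in none of the 8 and in 0.0639% of promoters. The half-site GGTCA alone was in 4 members, Fosb, Atf3, Jund and Klf6, and in 35.2% of promoters. TATAAA was found only in Fos among the 8, against 12.4% of promoters, and CCAAT in Jun, Junb and Klf6, against 33.8%. The serum response element core, the CArG box, was found only in Zfp36 among the 8, against 1.47%. Bases further upstream than 250, and the promoters of Egr1 and Ier2, were not searched. A gene without a match here may therefore hold the motif elsewhere. The RefSeq start and the start of the annotated gene were the same base for Fos and Jun. The RefSeq start lay 30 bases upstream for Junb and 1210 bases upstream for Jund. For Fosb, Klf6, Zfp36 and Atf3 it lay inside the annotated gene, so part of the searched window, and for Zfp36 and Atf3 all of it, was within that gene. A match is a string of letters and not a bound site.

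**Figure D1:**
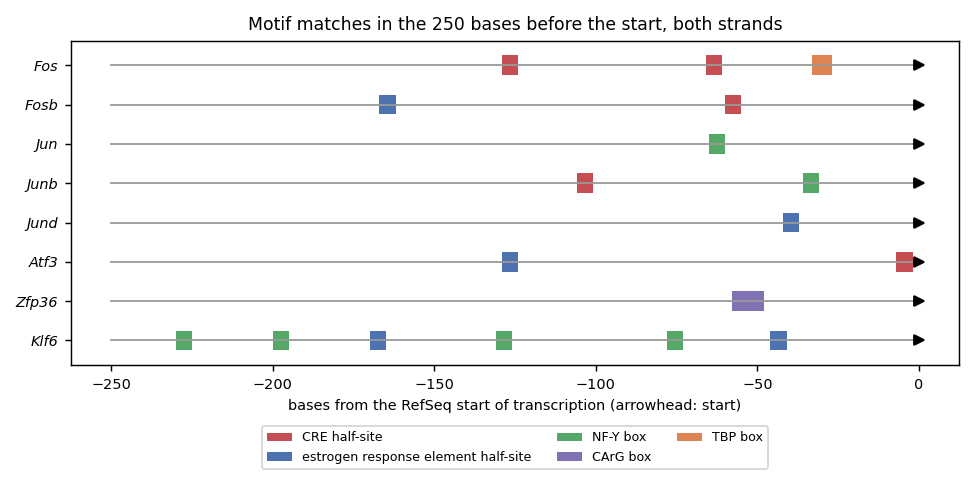
Places of motif matches (coloured blocks) along the 250 bases before the RefSeq start of 8 of the 10 genes, with the distance from the start in bases on the horizontal axis and 1 line per gene. TBP box is the TATA box and NF-Y box the CCAAT box of the text. Fos holds 2 CRE half-sites and a TATA box, and Fosb, Junb and Atf3 hold 1 CRE half-site each.

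All positions below are of build GRCm38, from annotation release M21. Fos (ENSMUSG00000021250) lies on chromosome 12 from 85473890 to 85477273. It was the most widely detected member, with a count in 568 of 589 cells. In E2-treated responsive cells the level of Fos, summed over the cells of each library, was lowest at 1360, median 1528 and highest at 2810 CPM over 9 libraries. In control responsive cells it was lowest at 632, median 1053 and highest at 1367 CPM over 10 libraries. The groups overlapped by 1 library each, since control library 4 lay just above E2 library 18, and E2 library 15 stood well above the rest. In responsive cells Fos rose with E2 by 0.69 on the log2 scale (SE 0.15), a 1.62-fold difference, with an adjusted p of 0.00870 (edgeR quasi-likelihood test, Benjamini-Hochberg). Without E2 library 15 the log2 fold change was 0.58, and Fos stayed past the threshold. The study itself reports higher Fos in E2-treated cells from these same data, so this call is no independent finding.

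Fosb (ENSMUSG00000003545), on chromosome 7 from 19302696 to 19310051, encodes another Fos family partner of Jun proteins. Its level in responsive cells was lowest at 95.3, median 120 and highest at 213 CPM in the 9 E2 libraries, against 30.7, 61.7 and 97.4 CPM in the 10 control libraries. Control library 4 was again the only control above an E2 library, here E2 library 16. Fosb rose with E2 by 1.09 on the log2 scale (SE 0.21), a 2.13-fold difference, with an adjusted p of 0.00373 (edgeR). These 2 of the 10 members were called, both higher, where a call needs a size of over 0.5 on the log2 scale besides an adjusted p under 0.05. Over all 10265 genes tested in responsive cells 1.37% were called, 0.848% higher and 0.526% lower. None of the 10 members had E2 and control responsive libraries that did not overlap, and 0.377% of genes had.

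Depth and the share of mitochondrial reads moved with the same groups. The median E2 responsive cell had 117809 reads and 2.43% mitochondrial reads, and the median control responsive cell 143233 reads and 2.08%. Between cells, the log level of Fos had a correlation of -0.28 with log10 reads in control and of -0.07 in E2-treated responsive cells. With the number of genes read in a cell, the log level of Fos had a correlation of -0.32 in control and of -0.20 in E2-treated responsive cells. That number was 4574 in the median control and 4169.5 in the median E2 responsive cell. With every cell thinned to 20000 reads the log2 fold changes were 0.65 for Fos and 1.12 for Fosb, and both were called. The part of the number of genes read, of the mitochondrial share and of the lower Thy1 in these differences was not tested.

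The share of responsive cells with a read was compared at 20000 reads per cell. For Fosb the mean share per library was 51.1% ± 11.5 (SD, n = 9) with E2 and, in control libraries, 34.0% ± 9.18 (SD, n = 10). The libraries ran from 36.0% to 70.6% with E2 and from 15.0% to 45.0% in control, so the groups overlapped. The exact two-sided permutation test over libraries gave p = 0.00178, adjusted p = 0.0355 over 20 tests, where the smallest p possible was 2.17e-05. Without thinning the difference was 17.4 points and the exact permutation test no longer passed, with an adjusted p of 0.156. Fos was read in 96.4% ± 4.38 (SD, n = 9) of E2-treated responsive cells against 90.4% ± 5.74 (SD, n = 10) of control ones, with an adjusted exact permutation p of 0.156. Without thinning, among cells with a Fos read the median level was 1408 CPM with E2 and 875 CPM in control, and among cells with a Fosb read it was 143 and 89.3 CPM. The labels set apart no group of cells that should lack these transcripts, so the background in such shares could not be measured.

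Jun (ENSMUSG00000052684, chromosome 4, 95049034 to 95052222), the main partner of Fos in AP-1, gave E2 and control responsive libraries that covered nearly the same range, 12.3 to 89.7 CPM and 29.8 to 101 CPM. Its log2 fold change was 0.00 (SE 0.30, 95% interval -0.58 to 0.58), and its sign turned with the processing. Junb (ENSMUSG00000052837, chromosome 8, 84974484 to 84978718) had 66.5 to 222 CPM with E2 and 124 to 246 CPM in control, with a log2 fold change of -0.20 (SE 0.19). Jund (ENSMUSG00000071076, chromosome 8, 70698949 to 70700616), the Jun protein that resting cells keep at a steady level, had 14.9 to 93.2 CPM with E2 and 35.9 to 86.7 CPM in control, with a log2 fold change of -0.01 (SE 0.26) and a sign that turned when single libraries were left out. The libraries of the 2 conditions overlapped for all 3 Jun genes, and none passed the test in edgeR, with adjusted p-values of 0.856 to 0.998. E2 library 15 gave the lowest E2 value of Jun and of Jund. Jund shares 50.1% of its 31-base words with the antisense gene Gm11175, Junb 6.51% with the overlapping antisense gene Prdx2 and Jun 6.39% with the antisense gene Junos, and the strand setting of the quantification is not given in the sources used here, so their counts may include reads of these neighbours.

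Egr1 (ENSMUSG00000038418, chromosome 18, 34859823 to 34864984), a zinc finger activator at the head of many growth factor responses, gave lower values with E2 that did not pass. Its level in responsive cells was lowest at 127, median 224 and highest at 247 CPM in E2 libraries, against 227, 265 and 341 CPM in control libraries. The groups overlapped, and the log2 fold change of -0.38 (SE 0.14) had an unadjusted p of 0.0106 and an adjusted p of 0.283 (edgeR). Its shares of cells were 67.1% and 74.3%, with an adjusted exact permutation p of 0.437. Of its values above 0, 71.7% were whole numbers, the lowest share of the 10, the others being at least 91.4%.

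The Fos and Egr1 levels of a library can be set against each other, which does not depend on the scaling of the library. The ratio was chosen after its values were seen and sets a member with higher values in E2 libraries against one with lower values, so a separation was built into the choice and is given as a description only. In responsive cells the ratio of Fos CPM to Egr1 CPM was 5.92 to 12.3 in the 9 E2 libraries and 2.50 to 5.42 in the 10 control libraries, with no overlap. The ratio of Fosb to Egr1 was 0.426 to 1.04 and 0.132 to 0.382, also with no overlap.

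The remaining 4 members did not pass in responsive cells. Zfp36 (ENSMUSG00000044786, chromosome 7, 28376784 to 28380253) encodes tristetraprolin, which binds AU-rich mRNAs and speeds their decay. It had 52.7 to 183 CPM with E2 and 77.0 to 166 CPM in control, a log2 fold change of -0.38 (SE 0.21, adjusted p = 0.608, edgeR), and was read in 47.3% of E2 and 56.9% of control cells (adjusted exact permutation p = 0.152). Atf3 (ENSMUSG00000026628, chromosome 1, 191170296 to 191218039), a bZIP factor induced by stress, had 10.8 to 69.0 CPM with E2 and 25.1 to 76.3 CPM in control and a log2 fold change of -0.29 (SE 0.33). Ier2 (ENSMUSG00000053560, chromosome 8, 84661331 to 84662852), an early response factor of nuclear location, had one of -0.63 (SE 0.36), and E2 libraries ran from 3.57 to 55.8 CPM against 16.1 to 81.0 CPM in control. The value of 3.57 CPM came from E2 library 15. Klf6 (ENSMUSG00000000078, chromosome 13, 5861482 to 5870394), a zinc finger factor of the Krüppel-like family, had few reads, 121 in all E2 and 245 in all control responsive cells, and a log2 fold change of -0.63 (SE 0.84). That value was -1.31 without E2 library 11, which held 44 of the 121 reads, -0.28 without control library 2 and -0.07 by limma-voom. The median log2 fold change of the 10 members was -0.24, and that of all genes tested was 0.02.

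Over all cells of a library, without cluster labels, the E2 libraries of Fos ran from 1177 to 2595 CPM and those of control from 530 to 1045 CPM, with no overlap. Those of Fosb ran from 94.4 to 193 CPM against 32.2 to 78.6 CPM, again with no overlap. Both members rose, with log2 fold changes of 0.94 (SE 0.15, adjusted p = 0.000467, edgeR) for Fos and 1.11 (SE 0.18, adjusted p = 0.000643, edgeR) for Fosb, where 1.62% of 10945 genes tested were called (1.13% higher) and 0.475% had libraries that did not overlap. The sums of all cells held 42 cluster 1 cells of 260 in E2 and 126 of 329 in control libraries, and Fos was lower in cluster 1, so the log2 fold changes within clusters, 0.69 and 0.88, are the ones that do not mix the clusters. None of the other 8 members was called. Egr1 came nearest, at -0.36 (SE 0.12) with an adjusted p of 0.174 (edgeR).

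In cluster 1 the counts came from fewer cells, and a sum needed at least 3 cells, so 7 E2 libraries of 3 to 9 cells and 10 control libraries of 8 to 18 cells remained. Fos there had 170 to 1381 CPM with E2, median 518, and 147 to 523 CPM in control, median 303. E2 libraries 15, 18 and 11, of 3, 7 and 9 cells, lay above every control library, and the other 4 E2 libraries lay within the control range. The log2 fold change was 0.88 (SE 0.37), with an unadjusted p of 0.0257 and an adjusted p of 0.577 (edgeR). It was 0.52 without E2 library 15, the library of 3 cells, and 0.47 by limma-voom. None of the 9 members tested was called, where 0.0839% of 8340 genes were (0.036% higher and 0.048% lower), and Klf6 was below the filter on low counts. Fosb had a log2 fold change of 0.64 (SE 0.78), Jun of -1.28 (SE 1.06) and Egr1 of 0.17 (SE 0.25).

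The difference between the E2 effects of the 2 clusters was tested by an interaction term. It was 0.14 (SE 0.40, 95% interval -0.65 to 0.92) for Fos, -0.51 (SE 0.75) for Fosb and 0.50 (SE 0.28) for Egr1 on the log2 scale, cluster 1 minus responsive, with adjusted p-values of 0.959, 0.899 and 0.526 (edgeR). No member was called, against 0.184% of 11398 genes, and with the library as a block no gene at all was called. The median interaction over all genes was -0.19, and the sign for Fos turned with the processing.

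**Figure D2:**
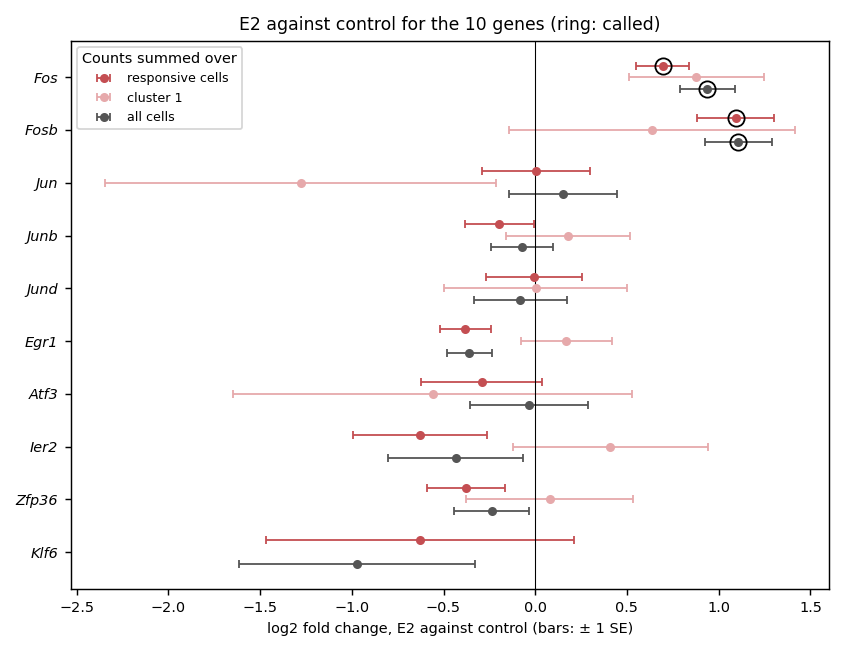
Log2 fold change of E2 against control for each gene, with bars of 1 SE, from counts summed over responsive cells (red), cluster 1 cells (pink) and all cells (grey), where a ring marks a call. Fos at 0.69 and 0.94 and Fosb at 1.09 and 1.11 carry rings, and the bars of cluster 1 are the widest for each of the 9 genes tested there.

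The members differed in how they were divided between the clusters. Since these genes were among those clustered, the values are a description without a test. Fos was lower in cluster 1 in each of the 17 libraries that had both sums, by a log2 fold change of -1.61 (SE 0.20), Jun in 16 by -2.07 (SE 0.48), Atf3 in 16 by -1.68 (SE 0.51) and Fosb in 13 by -0.87 (SE 0.38). Egr1 stood the other way, higher in cluster 1 in 16 of 17 libraries by 0.79 (SE 0.14), as did Ier2 in 16 by 1.22 (SE 0.32). Junb and Zfp36 were lower by -0.34 (SE 0.17) and -0.35 (SE 0.23), in 12 and 13 libraries, and Jund and Klf6 were higher by 0.40 (SE 0.26) and 0.49 (SE 0.72), in 10 and 9. In cluster 1 the median cell had 112126 reads in control and 87632 with E2, fewer than in responsive cells, and thinning to 20000 reads left the sign of the 9 members that could be fitted. With the library as a block the value of Fosb was -1.47, and no sign turned. The median over all genes was -0.41 in that fit, in place of -0.06, so the shift was not particular to Fosb. Over the block and the thinned fit Jun was -2.78 to -1.87 and Atf3 -2.43 to -1.86. Ordered by mean level, Fos ran from E2 responsive (1708 CPM) through control responsive (1049 CPM) and E2 cluster 1 (592 CPM) to control cluster 1 (329 CPM), and Egr1 from E2 cluster 1 (435 CPM) through control cluster 1 (398 CPM) and control responsive (269 CPM) to E2 responsive (208 CPM). For both, the ranges of neighbours in the order overlapped.

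Single cells varied more than libraries. In control responsive cells the quartiles of Fos were 261 and 1606 CPM, and in E2-treated ones 554 and 2532 CPM. The 20 control cells highest in Fos held 33.0% of its reads, those highest in Fosb 59.3% and those highest in Atf3 68.0%. With E2 the 22 highest cells held 29.4% of Fos, 46.2% of Fosb and 85.0% of Atf3 reads. The cell highest in Fos gave 2.85% and 2.64% of its reads in the 2 sets. For Klf6 in E2-treated cluster 1 cells, 1 cell gave 72.7% of its 22 reads, and for Atf3 1 cell gave 83.7% of 43. The median responsive cell had a read of 5 of the 10 members at 20000 reads, in both conditions.

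The correlation between cells was computed on log2(CPM + 1), centred per library, and is given as a description, since cells of a library share its preparation and reads per cell differ. Fos and Fosb were the pair with the highest Pearson r of the 45 in each of the 4 sets, at 0.45 in both control and E2-treated responsive cells (n = 203 and 218) and at 0.38 and 0.42 in control and E2-treated cluster 1 cells (n = 126 and 42). It was the highest pair in every other processing of the responsive cells too, but in cluster 1 Jun with Atf3 was higher in control cells by Spearman's rho, and Junb with Jund in E2-treated cells after thinning, with deposited size factors and by rho. Within single libraries of responsive cells r was above 0 in 18 of 19, with a median of 0.52 and a range of -0.09 to 0.70. No 31-base word is shared between members, so reads of one cannot be counted for another by sequence.

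Over all 421 responsive cells the median r of the 45 pairs was 0.088, where the median over all 27881778 pairs of genes read in at least 20% of these cells was 0.023 and their 99th percentile 0.146. Most pairs were therefore weak. Klf6 was read in 7.88% of control and 6.42% of E2-treated responsive cells, so its pairs were among the 45 but not in that background. Fos with Zfp36 (0.36), Egr1 (0.29) and Junb (0.27), and Fosb with Zfp36 (0.23) and Jun (0.21), followed Fos with Fosb. The AP-1 partners Fos and Jun had an r of 0.15, and of the pairs with Jund, Ier2 or Klf6 the highest was Fos with Ier2 at 0.17.

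The value of r for Fos with Egr1 differed between sets of cells. It was 0.42 in control and 0.14 in E2-treated responsive cells, -0.05 in control and -0.28 in E2-treated cluster 1 cells. Within single libraries of responsive cells it was 0.17 to 0.78 in the 10 control libraries, all above 0, and -0.38 to 0.52 in the 9 E2 libraries, 6 of them above 0. The library ranges overlapped. Fos with Zfp36 was 0.44 in control and 0.26 in E2-treated responsive cells. Egr1 itself had an r with log10 reads of 0.04 in control and 0.19 in E2-treated responsive cells, against -0.28 and -0.07 for Fos. The part of depth in the difference of r between conditions was not tested.

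**Figure D3:**
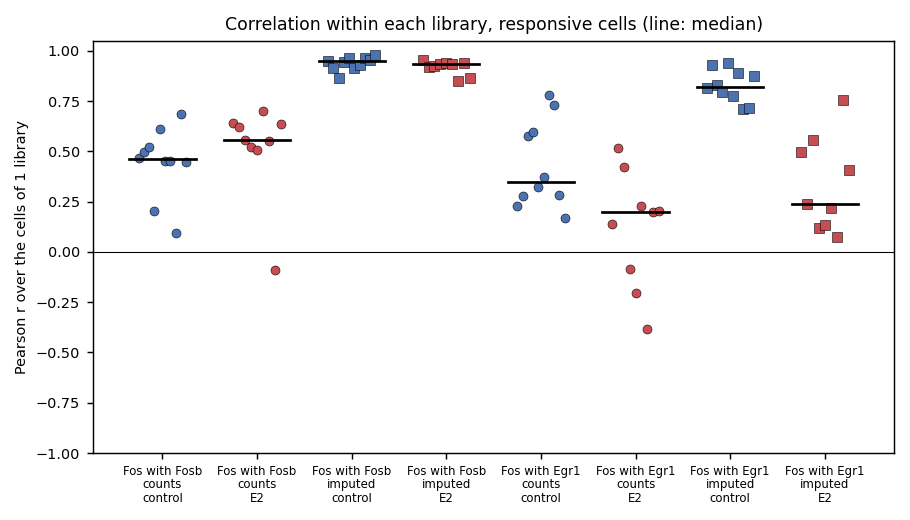
Pearson r over the responsive cells of each library (1 point per library, 15 to 30 cells each) for Fos with Fosb and Fos with Egr1, from counts (circles) and imputed values (squares) in control (blue) and E2 (red) libraries, with the median as a line. Imputed values of Fos with Fosb lie between 0.85 and 0.98 where counts give -0.09 to 0.70, and the control libraries of Fos with Egr1 are all above 0.

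The same correlations in the deposited imputed values were larger. Imputation with MAGIC fills in a cell from cells like it, so that values are shared between cells. Over responsive cells Fos with Fosb had an r of 0.44 in counts and 0.93 in imputed values, and the median of the 45 pairs was 0.088 and 0.23. In cluster 1 Fos with Egr1 was -0.09 in counts and -0.76 in imputed values, and in single control libraries of cluster 1 the imputed r was -0.91 to -0.58 in all 8 with enough cells, where counts gave -0.69 to 0.46 with 2 of 8 above 0. Thinning, no centring per library, Spearman's rho and the deposited size factors each left Fos with Fosb between 0.37 and 0.51 over responsive cells and Fos with Egr1 between 0.25 and 0.30.

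**Figure D4:**
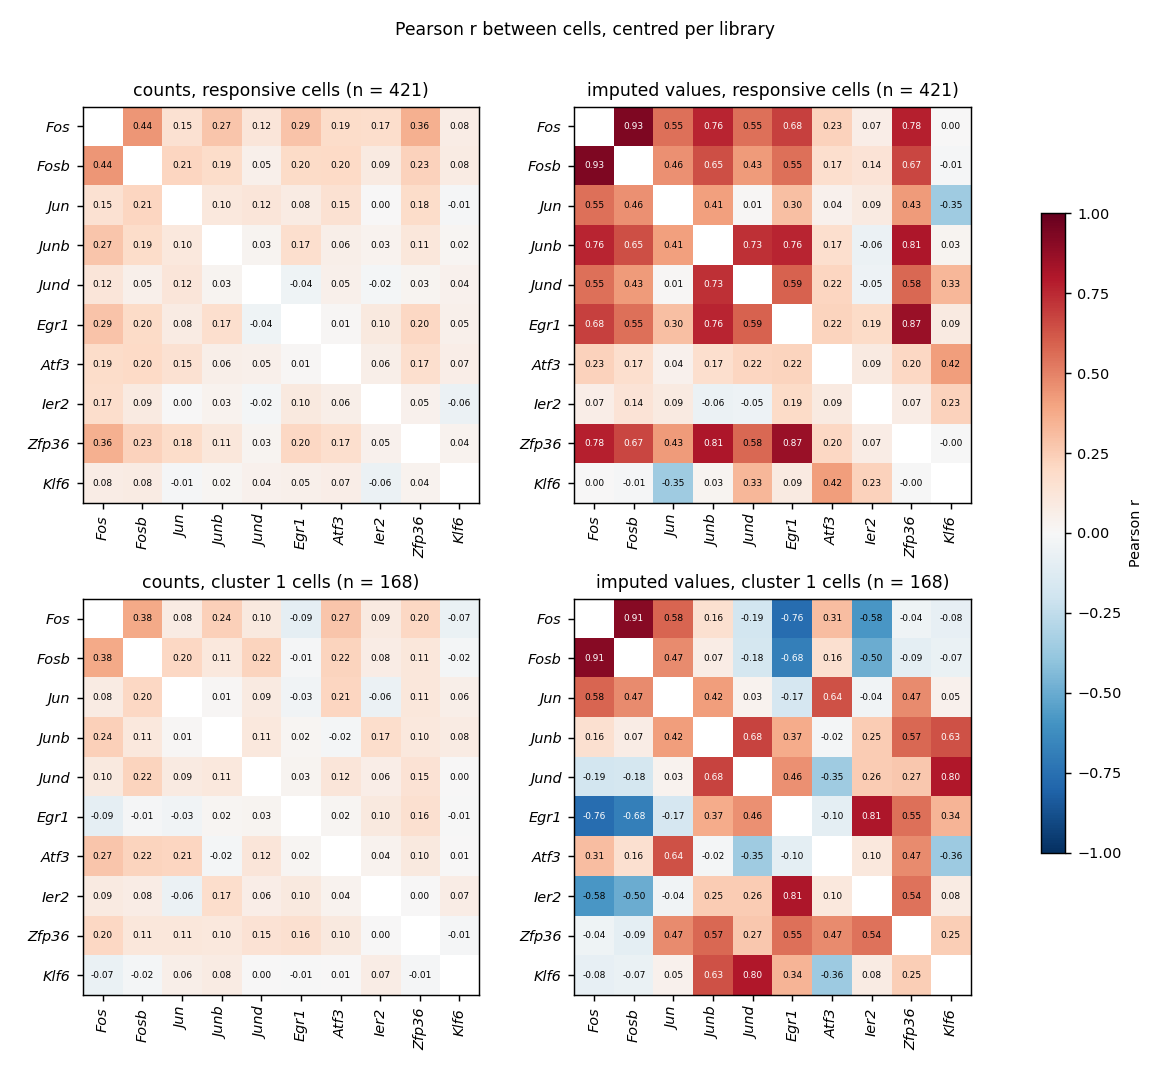
Pearson r between cells for all 45 pairs of the 10 genes (colour, -1 to 1, printed in each square), from counts (left) and imputed values (right), in 421 responsive cells (top) and 168 cluster 1 cells (bottom), centred per library. In counts Fos with Fosb is highest in both clusters, at 0.44 and 0.38, and imputed values of Fos with Egr1 turn from 0.68 in responsive cells to -0.76 in cluster 1.

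The genes outside the 10 whose pattern was most like theirs were found by r with the mean of the standardised members over 421 responsive cells, among 7468 genes. They were Nr4a1 (0.40), Dusp1 (0.35), Ier3 (0.24), Csrnp1 (0.24) and Btg2 (0.23), and all 5 were in the list of other immediate early genes. That list had 42 of its 45 genes in the table of 14299, and its share of the 7468 was not counted. It was chosen with earlier results of these data known, so the overlap is no independent support. Nr4a1 encodes an orphan nuclear receptor and Dusp1 a phosphatase that switches off MAP kinases. Most like Fos alone were Dusp1 (0.36), Nr4a1 (0.32), Tpt1 (0.28), Gas1 (0.26) and Rpl34-ps1 (0.25), the last a pseudogene with close copies among ribosomal protein genes, so that its counts are uncertain. Against E2, Nr4a1 had 44.8 to 128 CPM in E2 and 97.1 to 260 CPM in control responsive libraries, a log2 fold change of -0.79 (SE 0.21) whose adjusted p of 0.0525 (edgeR) missed the threshold, and Dusp1 had one of 0.41 (SE 0.19, adjusted p = 0.492, edgeR).

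Among other immediate early genes, 39 of 45 listed were tested in responsive cells, of which 1 rose and 1 fell, where 0.848% and 0.526% of all genes tested did. The kinase gene Pim1 rose by 1.30 on the log2 scale (SE 0.28, adjusted p = 0.0111, edgeR), from 36.0 to 98.9 CPM in control to 25.3 to 232 CPM in E2 libraries, and its groups overlapped. By limma-voom Pim1 missed the threshold, with an adjusted p of 0.137. Nfkbia, which encodes an inhibitor of NF-kappa-B, had a log2 fold change of -0.78 (SE 0.15, adjusted p = 0.00303, edgeR), with 121 to 212 CPM in E2 and 183 to 350 CPM in control libraries. The median log2 fold change of the list was -0.06.

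Of 18 possible bZIP partners tested, none rose and 1 fell, Maf, at -0.58 (SE 0.15, adjusted p = 0.0469, edgeR), a call that was lost when any of 15 of the 19 libraries was left out. Of 22 genes of the signalling that leads to immediate early transcription 1 rose, Map2k1, which encodes the kinase MEK1, by 1.07 (SE 0.24, adjusted p = 0.0151, edgeR), with 98.4 to 217 CPM in E2 and 22.1 to 105 CPM in control libraries. With 1.37% of all genes called in responsive cells, 1 call in lists of this size is given as a count only. None of 15 feedback inhibitors, 10 AP-1 targets, 7 AU-rich mRNAs bound by Zfp36 or 10 heat shock genes was called in responsive cells. Their median log2 fold changes were -0.16, -0.53, -0.28 and -0.02. Of the reference genes of E2, Igfbp5 rose by 2.62 (SE 0.23, adjusted p = 1.70e-08, edgeR) in responsive cells. Greb1, a direct target of the estrogen receptor, had 899 reads in E2 and 1 read in control responsive cells. The study had singled out both genes in these same cells, so their values are no independent check of the treatment. It also reports higher Fos, Map2k1 and Krt19 with E2 in these cells, so those calls restate its own findings. Pgr was not among the genes of the table.

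In cluster 1 no gene of any of these lists was called. Over all cells the same comparison called 1 AP-1 target, Timp1, an inhibitor of metalloproteinases, at -0.70 (SE 0.17, adjusted p = 0.0339, edgeR), out of 12 tested, where 1.62% of all genes were called and 0.484% were lower.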

How the data were processed

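The count table the authors deposited holds estimated counts from kallisto 0.44.0 (per the labels), summed to genes and filtered by cell and gene. They also deposited log2 values scaled by scran and imputed with MAGIC (base 2 judged from the values, not stated), and per-cell metadata with percent mitochondrial reads, size factors as a ratio, a pseudotime score and SC3 labels. Of counts above 0, 66.9% were whole. Reads have no molecular identifiers. The 95% intervals of fold changes rest on the SE and so include the spread between libraries. Symbols came from annotation M21 of GRCm38, the build in the submitters' notes, and 14135 of 14299 genes had one.

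Counts were summed per library and cluster (at least 3 cells) and rounded. edgeR 4.0.16 in R 4.3.3 used TMM, filterByExpr and the quasi-likelihood test, Benjamini-Hochberg over all genes tested. Each SE came from the fold change and F (size over the root of F). Levels are TMM-scaled CPM. Shares of cells were tested by exact two-sided permutation of libraries. Correlations used numpy 2.4.6. Alternatives were DESeq2 1.42.0, limma-voom (limma 3.58.1), RLE factors, no filter, thinning to 20000 reads, at least 5 cells, labels for 3 clusters, a library block and leaving out each library. The fits were tested on simulated data. The members, lists and tests were chosen with earlier results of these data known. Named genes are all members, listed genes that were called, up to 6 per list, the 5 genes most like the members and the 5 most like Fos. Lists were written from general knowledge, and Cyr61 and Ctgf were not matched to the table. Promoters came from RefSeq (GRCm38.p6), and those of Egr1 and Ier2 were not used here.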

Additional observations from a re-analysis of the deposited data

Results flagged for a closer look

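In 9 of 60 groups of libraries the highest or lowest library stood apart from the rest by Dixon's test at the 95% level. Chance alone gives about 1 in 20 for independent, normally distributed groups. These groups were not independent, since all-cell sums hold the responsive and cluster 1 sums, and some had few reads. The count of 9 is therefore not read as an excess. E2 library 15 was highest for Fos, at 2810 CPM in responsive cells (24 cells, next library 1860 CPM) and at 2595 CPM over all cells (next 1726 CPM). Without it the log2 fold change of Fos in responsive cells was 0.58 in place of 0.69 and was still called. Library 15 was also the highest E2 responsive library for Fosb (213 CPM). It was the lowest for Jun (12.3 CPM), Jund (14.9 CPM) and Ier2 (3.57 CPM), which were not flagged. Its median cell had 3429 genes read, the fewest of all libraries, and 133935 reads, the most of the E2 libraries.

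E2 library 12 was lowest for Egr1 over all cells, at 178 CPM, with the next library at 227 CPM. In cluster 1, control library 4 was highest for Jun (86.5 CPM, next 43.9 CPM), Atf3 (46.7 CPM, next 20.9 CPM) and Klf6 (57.9 CPM, 93 reads). E2 library 11 was highest for Atf3 in cluster 1 (46.6 CPM, 36 reads, next 10.4 CPM) and for Klf6 in responsive cells (22.3 CPM, 44 reads, next 7.15 CPM), and E2 library 16 for Klf6 in cluster 1 (34.7 CPM, 16 reads, next 8.83 CPM).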

How the results depend on the processing

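The calls of Fos and Fosb in responsive cells and over all cells stood under every alternative run and without any single library, with log2 fold changes in responsive cells of 0.65 to 0.70 and 1.08 to 1.12 over 7 alternatives, and of 0.58 to 0.75 and 0.99 to 1.18 without 1 library. No other member was called in either. The count of all genes called was 234 by DESeq2 in responsive cells (141 by edgeR), 52 in cluster 1 (7), 98 for the interaction (21) and 318 over all cells (177). In cluster 1 it was 1 without a filter on genes, and 1 (without E2 library 11) to 9 (without E2 library 18) when single libraries were left out. For the interaction it was 13 by limma-voom, 5 with thinned cells, 0 with the library as a replicate block and 15 to 44 without 1 library. The share of cells without thinning gave 0 calls in place of 1. In imputed values the median correlation was 0.23, Fos with Fosb 0.93 and Fos with Egr1 0.68 in responsive cells and -0.76 in cluster 1.

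Signs turned for the following values, none of them called. Jun in responsive cells was -0.11 by limma-voom, -0.012 without the filter and -0.065 with thinned cells. In cluster 1 Jund was -0.19 by limma-voom, -0.068 without the filter, -0.22 with thinned cells and -0.011 with labels for 3 clusters, Junb was -0.018 with thinned cells and Zfp36 -0.034 by limma-voom, which put the median of all genes there at -0.38 in place of -0.06. The interaction of Fos was -0.28 by limma-voom, -0.14 with thinned cells, -0.20 with at least 5 cells and -0.14 with the library as a replicate block, and Atf3 over all cells was 0.24 with thinned cells. Without 1 library, Jun in responsive cells was -0.080 to 0.14 and Jund -0.12 to 0.12. In cluster 1 Jund was -0.27 to 0.19, Egr1 -0.019 to 0.26, Ier2, 0.41 with all libraries, -0.044 to 0.62 and Zfp36 -0.36 to 0.22. The interaction of Fos was -0.13 to 0.30, and over all cells Junb was -0.17 to 0.013, Jund -0.17 to 0.054 and Atf3 -0.18 to 0.086. Pim1 missed the threshold by limma-voom (adjusted p = 0.137), and Maf with RLE factors, without the filter and with thinned cells. The cause was not tested. Of 266 values of single genes under alternatives other than leaving out a library, 242 kept their direction and side of the threshold. No paired analysis of E2 against control was possible, because all columns of a condition shared 1 suspension and the labels name no pairs. The ratios to Egr1, the correlations within libraries and those with deposited size factors were chosen after seeing the data. With 3 to 9 E2 cells per library in cluster 1, its intervals were wide.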

Other observations

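The deposited trajectory states, made from the same cells, gave another division, for which levels are a description over pooled cells with no test. The level of Fos was lowest in state 1, at 469 CPM in 148 control cells and 596 CPM in 41 E2-treated cells. It was 1007 CPM in the 143 control cells of state 2 and 1737 CPM in the 151 E2-treated cells of state 5. State 4 held cells of both conditions, with Fos at 1070 CPM in 21 control and 1332 CPM in 43 E2-treated cells. Egr1 was highest in state 1, at 376 CPM in control and 461 CPM in E2-treated cells, and was at 185 CPM in state 5. Outside state 1 its order was not the reverse of that of Fos. Egr1 was at 281 CPM in state 2, at 181 CPM in control cells of state 4 and at 279 CPM in state 7. State 7, of 14 control cells, had Fos at 1436 CPM and Fosb at 22.4 CPM, where state 5 had Fosb at 143 CPM. In state 4 Fosb was at 81.2 CPM in control and 118 CPM in E2-treated cells, and in state 6, of 21 E2-treated cells, it was at 66.8 CPM, below the control cells of state 4, with Fos at 1293 CPM.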
